A study of Mus musculus with 26 samples.

Results

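The set described here holds 34 genes of the integrated stress response and the unfolded protein response, taken by gene symbol from a table of expression values that lists 52454 symbols, and each of them was found there on 1 row. It comprises 7 transcription factor genes around *Atf4*, 6 feedback and stress effector genes, 8 genes of amino acid and one-carbon synthesis, 4 amino acid transporter genes, 2 tRNA synthetase genes and 7 genes of endoplasmic reticulum (ER) chaperones and ER-associated degradation (ERAD). In the integrated stress response, kinases that sense amino acid shortage, misfolded protein in the ER, heme shortage or viral RNA phosphorylate the translation factor eIF2, general translation falls, and the mRNA of *Atf4* is translated more. ATF4 binds C/EBP-ATF response elements (CARE) and raises genes that make, import and charge amino acids. The unfolded protein response also runs through XBP1 and ATF6, which act on the ER stress response element (ERSE) of chaperone genes.

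The study asked how the DNA methyltransferases DNMT3A and DNMT3B set DNA methylation during mouse development, and how Polycomb-bound genes behave when *Dnmt3a* is lost. RNA-seq was available for 10 libraries, 1 per condition, so a difference between conditions has no replicate check and no test or p-value is given. Mouse embryonic fibroblasts (MEFs) of passage p1 were made from male C57BL6 embryos at E14.5, either WT or labelled *Dnmt3a* KO, from crosses of mice heterozygous for a *Dnmt3a* knockout allele, and were cultured with DMSO or with 10 µM GSK126, an inhibitor of the H3K27 methyltransferase EZH2, for 2 days. They grew in DMEM with added glutamine and nonessential amino acids. The 2i-MEFs were female, of the F1 strain of 129X1/SvJ and MSM/Ms, carried a CRISPR/Cas9 KO of *Dnmt3a* or of *Dnmt3b*, and came from chimeric E14.5 embryos made with edited 2i/L ES cells, from which the labelled cells were selected with G418 and sorted. By the numbers in their titles, heart and liver came from 1 male C57BL6 E14.5 WT embryo and from 1 labelled *Dnmt3a* KO. Each genotype comparison of an organ is thus between 2 animals. Nothing in the sources used here says whether the DMSO and GSK126 cultures of a genotype came from the same embryo.

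Values are FPKM as deposited, that is, mapped fragments scaled to the length of the transcript and to the size of the library, and a ratio is the log2 ratio of FPKM + 1 between 2 libraries. A gene was counted in a comparison where its mean over the 2 libraries was at least 1 FPKM. The depth estimated from the steps of low values was 9180098 to 26238765 reads per library. The 95% Poisson intervals given below cover counting error only, and they use the shortest annotated transcript of a gene, which gives the widest interval. *Dnmt3a* itself did not follow the labels in MEFs. It was at 26.1 FPKM with DMSO and 19.3 with GSK126 in the WT libraries, against 85.7 and 84.5 in the libraries labelled *Dnmt3a* KO, and at 55.0 in WT heart against 125 in the heart labelled KO. It followed them in liver, with 53.5 FPKM in WT and 12.7 in the liver labelled KO, and in the *Dnmt3a* KO 2i-MEFs, with 4.21 against 23.9 in *Dnmt3b* KO 2i-MEFs. *Dnmt3b* was at 7.34 FPKM or below in all 10 libraries, at 0.817 FPKM in its own KO and 1.81 in *Dnmt3a* KO 2i-MEFs. FPKM sums all transcripts of a gene and does not show whether a deleted exon is missing. *Pax8*, a developmental gene that the study followed in these libraries and that was added here after its values were seen, was at 16.6 FPKM in *Dnmt3a* KO 2i-MEFs and 0.715 in *Dnmt3b* KO. In MEFs it was at 0.236 and 0.101 FPKM in the WT libraries and at 4.24 and 6.92 in those labelled KO, so the level of *Pax8* in MEFs ran with the labels and that of *Dnmt3a* against them. *Pax8* was at 0 in both hearts, and whether the hearts were exchanged was not tested. With exchanged labels the genotype ratios of the pair concerned would have the opposite sign. Of the 4 macrophage markers fixed for the check (*Adgre1*, *Cd68*, *Lyz2*, *C1qa*), the summed level was 960.3 to 1339 FPKM in the 4 MEF libraries and 14.3 to 21.2 in the 2i-MEFs, with 1 of the 4 at 0 in *Dnmt3b* KO 2i-MEFs, and the 7 fibroblast markers summed to 5980.4 to 11828 FPKM and to 16646 to 17535. In a bulk library fewer cells of a type and less RNA per cell cannot be told apart.

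The promoters show which of these genes carry the letters of the 2 elements. RefSeq promoters of GRCm38.p6, from 250 bases before to 50 bases after the start, matched 31 of the 34 genes, and *Slc7a5*, *Slc7a3* and *Wars* had no entry. CARE was searched as TGATGNAA and ERSE as CCAAT, 9 bases of any kind and CCACG, on both strands, and no promoter of the set held both. A CARE match was present in 10 of the 31 (32.3%): *Atf3*, *Nupr1*, *Trib3*, *Chac1*, *Vldlr*, *Asns*, *Pycr1*, *Slc7a11*, *Gars* and *Herpud1*. The same letters occurred in 4.51% of the 27025 symbols with a promoter, and in 2.74% of the 10249 whose mean over the libraries was at least 1 FPKM. An ERSE match was present in *Hspa5*, *Hsp90b1* and *Creld2*, which is 9.68% of the 31, against 0.137% of all symbols. A match is a description of letters and not evidence of binding.

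The stretches below show the elements of genes whose levels are followed through the libraries, written on the strand of the gene, with the matched letters in capitals (TTNCATCA is CARE read from the other strand, and CGTGG followed by 9 bases and ATTGG is ERSE read from the other strand). For *Nupr1*, *Asns* and *Hspa5* the match lies inside an exon of the GENCODE annotation that begins before the RefSeq start, and only a short stretch is shown. The capitals begin 110 bases before the start in *Nupr1*, 193 in *Chac1*, 23 in *Asns*, 66 and 47 in *Slc7a11*, 110 in *Atf3*, 112 in *Herpud1*, 65 in *Hspa5*, 212 and 107 in *Hsp90b1* and 126 in *Creld2*. In *Trib3* the match begins 14 bases after the start, inside the transcript.
*Nupr1*, CARE, chr7:126625562-126625591, minus strand: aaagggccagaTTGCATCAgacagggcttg
*Chac1*, CARE, chr2:119351009-119351096, plus strand: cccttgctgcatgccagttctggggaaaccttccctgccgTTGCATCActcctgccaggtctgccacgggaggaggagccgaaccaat
*Asns*, CARE, chr6:7693214-7693243, minus strand: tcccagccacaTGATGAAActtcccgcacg
*Slc7a11*, 2 CAREs in opposite directions, chr3:50443615-50443719, minus strand: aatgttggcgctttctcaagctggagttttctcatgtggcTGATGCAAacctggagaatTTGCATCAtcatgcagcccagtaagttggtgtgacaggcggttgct
*Atf3*, CARE, chr1:191183396-191183483, minus strand: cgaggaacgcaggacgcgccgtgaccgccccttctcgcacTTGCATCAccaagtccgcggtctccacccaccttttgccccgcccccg
*Herpud1*, CARE, chr8:94386277-94386364, plus strand: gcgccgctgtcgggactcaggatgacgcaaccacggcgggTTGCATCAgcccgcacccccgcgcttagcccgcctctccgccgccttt
*Hspa5*, ERSE, chr2:34772020-34772048, plus strand: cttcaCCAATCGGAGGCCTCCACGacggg
*Hsp90b1*, 2 ERSEs in opposite directions, chr10:86705510-86705694, minus strand: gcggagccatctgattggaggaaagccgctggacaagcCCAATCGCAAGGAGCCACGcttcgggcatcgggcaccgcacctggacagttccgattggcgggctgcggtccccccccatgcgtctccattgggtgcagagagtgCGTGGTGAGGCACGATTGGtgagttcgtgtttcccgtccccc
*Creld2*, ERSE, chr15:88819480-88819578, plus strand: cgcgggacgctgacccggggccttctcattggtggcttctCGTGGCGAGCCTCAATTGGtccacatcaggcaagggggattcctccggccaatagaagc

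In WT MEFs the GSK126 library had higher levels than the DMSO library for nearly all genes of the amino acid arm and not for the ER chaperones. All 34 genes passed the filter, and 28 of them (82.4%) had a ratio above 0, against 50.2% of the 13020 genes tested, with a median log2 ratio of 0.28 against 0.00 for all genes. At least 2-fold higher were *Slc7a3*, *Nupr1* and *Trib3*, 3 of 34, against 1.67% of all genes tested, and none of the 34 was at least 2-fold lower, against 1.33%. At 1.5-fold, 9 of 34 were higher (5.48% of all genes) and 0 were lower (4.60%). The 27 genes outside the chaperone and ERAD group had a median log2 ratio of 0.40, with 26 above 0, while the 7 chaperone and ERAD genes had a median of -0.03, with 2 above 0.

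The MEF pair labelled *Dnmt3a* KO, which shares no library with the WT pair, had 23 of 34 ratios above 0 (67.6%, against 45.4% of 13163 genes), with a median log2 ratio of 0.23 against -0.04 for all genes. *Slc7a3* was at least 2-fold higher, 1 of 34 against 1.69% of all genes, and none was at least 2-fold lower, against 2.84%. At 1.5-fold, 7 were higher (5.45% of all genes) and 0 lower (9.56%). The 27 genes outside the chaperone and ERAD group had a median of 0.36 and the 7 within it a median of -0.21, with all 7 below 0. *Trib3*, *Chac1*, *Asns* and *Slc7a3* were at least 1.5-fold higher in both pairs, 4 of 34, where 1.42% of 12562 genes tested in both were. The direction was upward in both pairs for 23 of 34 genes, against 25.8% of the 12562 genes. It was downward in both for 6 (*Ppp1r15a*, *Hspa5*, *Hsp90b1*, *Dnajb9*, *Sdf2l1* and *Pdia4*), a direction for which no all-gene share was computed. It was upward in WT with downward in the other pair for 5 of 34 (*Atf3*, *Atf4*, *Ddit3*, *Herpud1* and *Creld2*), against 24.5% of all genes. None went the other way.

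**Figure D1:**
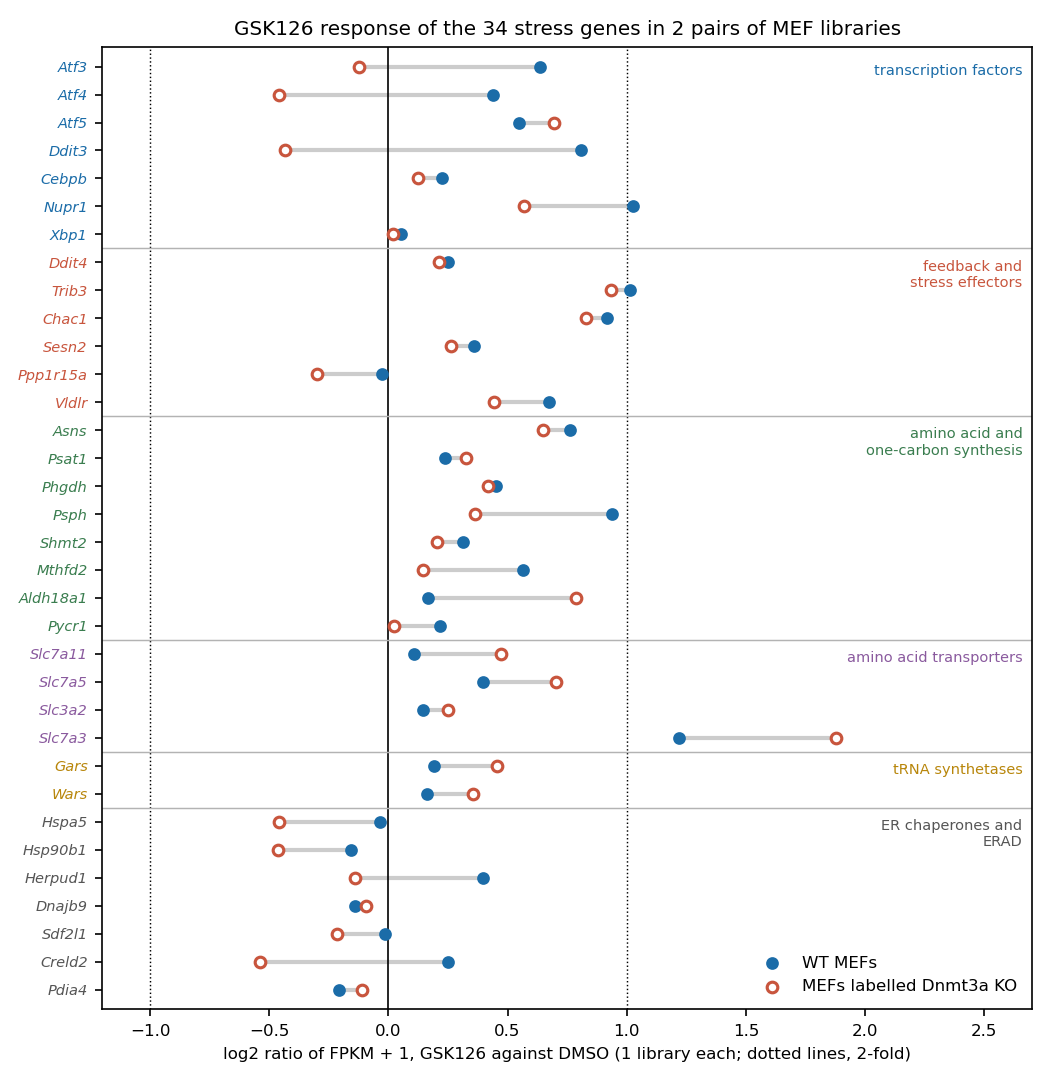
Log2 ratio of FPKM + 1 between the GSK126 and the DMSO library for each of the 34 genes, grouped by role, in WT MEFs (filled points) and MEFs labelled *Dnmt3a* KO (open points), 1 library per condition. *Slc7a3* lies farthest to the right in both pairs, the 7 chaperone and ERAD genes lie at or below 0 in the second pair, and *Atf4*, *Ddit3* and *Atf3* have their points on opposite sides of 0.

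Among the transcription factors, *Atf4* (chr15:80255184-80257540, mm10) encodes the factor at the centre of the response. Its level was 92.8 FPKM with DMSO and 126 with GSK126 in WT MEFs, and 188 with DMSO and 137 with GSK126 in MEFs labelled *Dnmt3a* KO. The 3 libraries other than WT DMSO thus lay above it, and the library labelled KO with DMSO was the highest. The intervals were 86.4 to 99.7 and 119 to 134 FPKM in WT, and 180.2 to 196 and 129 to 144 in the other pair, so neither pair overlapped in counting error, and the log2 ratios were 0.44 and -0.46. Since ATF4 is set mainly by translation, its mRNA level is only part of its activity.

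*Ddit3*, which encodes CHOP, a factor induced by ATF4 in strong or lasting stress, had the same lowest and highest MEF library as *Atf4*, with the 2 GSK126 libraries between them. It was at 36.9 FPKM with DMSO and 65.4 with GSK126 in WT, and at 84.1 and 62.0 in the pair labelled KO (log2 ratios of 0.81 and -0.43). *Atf3*, a stress-induced factor that dampens inflammatory genes, was at 49.6 and 77.6 FPKM in WT and at 100.3 and 92.1 in the other pair (0.64 and -0.12). For both genes, as for *Atf4*, WT with DMSO was the lowest of the 4 libraries and the library labelled KO with DMSO the highest. *Ddit3* overlaps *Mars*, a tRNA synthetase gene, at its end, and reads in the shared stretch cannot be assigned with certainty.

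*Nupr1* and *Atf5*, both targets of ATF4, were higher with GSK126 in both pairs. *Nupr1*, a small chromatin-associated stress protein, was at 70.9 FPKM with DMSO and 146 with GSK126 in WT (intervals 59.8 to 83.6 and 130.0 to 163) and at 131 and 195 in the pair labelled KO (118 to 145 and 177 to 213). *Atf5*, a factor linked to the mitochondrial stress response, was at 159 and 234 FPKM in WT and at 161 and 261 in the other pair, with log2 ratios of 0.55 and 0.69. The DMSO libraries were therefore close for *Atf5* and apart for *Nupr1*. *Cebpb*, a partner of ATF4 on CARE, was at 33.4, 39.2, 42.2 and 46.1 FPKM in the order WT DMSO, WT GSK126, KO-labelled DMSO and KO-labelled GSK126. *Xbp1*, the factor activated by IRE1 splicing, was at 74.9, 77.7, 69.6 and 70.6 FPKM in the same order. Its log2 ratios of 0.05 and 0.02 were the smallest of the 7 factors, and gene-level FPKM does not separate its spliced form.

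Of the 6 feedback and effector genes, 5 were higher with GSK126 in each pair, with median log2 ratios of 0.52 and 0.35. *Trib3*, a pseudokinase that restrains ATF4, was at 11.8 FPKM with DMSO and 24.8 with GSK126 in WT MEFs, and at 14.4 and 28.4 in MEFs labelled *Dnmt3a* KO. Both GSK126 libraries lay above both DMSO libraries, with intervals of 9.10 to 15.1 and 20.8 to 29.1 FPKM in WT and of 11.8 to 17.3 and 24.4 to 32.8 in the other pair, and the log2 ratios were 1.01 and 0.93. *Chac1*, an enzyme that degrades glutathione, was at 13.5 and 26.4 FPKM in WT and at 23.9 and 43.3 in the other pair, and its single annotated transcript gave 348 to 1315 reads per MEF library. The intervals for *Chac1* were 12.1 to 15 and 24.5 to 28.3 in WT, and 22.4 to 25.6 and 41.0 to 45.7 in the other pair, with log2 ratios of 0.92 and 0.83. The WT GSK126 level of *Chac1* was near the DMSO level of the library labelled KO.

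*Vldlr*, a lipoprotein receptor raised by ATF4, was at 9.29 and 15.4 FPKM in WT and at 16.5 and 22.9 in the pair labelled KO (log2 ratios of 0.68 and 0.44). *Sesn2*, which lowers mTORC1 activity when leucine is short, was at 38.5, 49.8, 42.8 and 51.6 FPKM in the order WT DMSO, WT GSK126, KO-labelled DMSO and KO-labelled GSK126. *Ddit4*, another inhibitor of mTORC1, was at 18.9, 22.7, 25.6 and 29.8 FPKM in that order. These 3 genes had smaller ratios than *Trib3* and *Chac1*, in the same direction. *Ppp1r15a*, which encodes GADD34, the stress-induced subunit of the phosphatase that reverses eIF2 phosphorylation, went apart from the other 5, at 58.3 and 57.2 FPKM in WT and at 116 and 94.0 in the pair labelled KO (log2 ratios of -0.03 and -0.30).

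All 8 genes of amino acid and one-carbon synthesis had ratios above 0 in both pairs, from 0.17 to 0.94 in WT and from 0.02 to 0.79 in the pair labelled KO, with medians of 0.38 and 0.35. *Asns*, which makes asparagine and is a classical ATF4 target, was at 50.7 FPKM with DMSO and 86.7 with GSK126 in WT, and at 54.9 and 86.7 in the other pair. Its 4 values fell into a lower DMSO pair and a higher GSK126 pair, with intervals of 44 to 58.1 and 49.1 to 61.3 FPKM for DMSO and 78.2 to 95.8 and 78.7 to 95.5 for GSK126. The serine pathway enzymes run from *Phgdh* through *Psat1* to *Psph*. *Phgdh*, the first of them, was at 115 and 157 FPKM in WT and at 126 and 169 in the other pair. *Psat1* was at 80.9 and 95.5 FPKM in WT and at 92.8 and 117 in the other pair. *Psph* was at 14.6 and 28.9 FPKM in WT and at 26.6 and 34.4 in the other pair. Of these 3, *Psph* was the one whose DMSO libraries stood apart, and its locus overlaps that of *Cct6a*, a subunit of a cytosolic chaperonin.

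The mitochondrial one-carbon enzymes were also higher with GSK126 in both pairs. *Mthfd2* was at 24.8 and 37.2 FPKM in WT and at 35.5 and 39.4 in the pair labelled KO (log2 ratios of 0.56 and 0.15), and *Shmt2*, which splits serine into glycine and a one-carbon unit, at 49.4 and 61.6 and at 54.8 and 63.3. Of the proline pathway, *Aldh18a1* was at 67.1 and 75.4 FPKM in WT and at 45.8 and 79.7 in the other pair, so its larger ratio in that pair (0.79 against 0.17) came with a lower DMSO value. *Pycr1*, which completes proline, was at 25.6, 30, 26.5 and 27.0 FPKM in the order used above.

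The 4 amino acid transporter genes were all higher with GSK126 in both pairs. *Slc7a3* (chrX:101079210-101086020, mm10), a transporter of arginine and lysine, had the highest ratios of the whole set. It was at 2.29 FPKM with DMSO and 6.66 with GSK126 in WT MEFs and at 1.93 and 9.77 in MEFs labelled *Dnmt3a* KO, log2 ratios of 1.22 and 1.88. On the shortest transcript these were 7, 21, 8 and 34 reads, with intervals of 0.954 to 4.89 and 4.09 to 10.1 FPKM in WT, which overlap, and of 0.821 to 3.75 and 6.78 to 13.7 in the other pair, which do not. *Slc7a5*, the light chain of the leucine transporter, was at 38.4 and 50.8 FPKM in WT and at 35.1 and 57.8 in the other pair. *Slc3a2*, the heavy chain that pairs with both *Slc7a5* and *Slc7a11*, was at 214 and 237 and at 230.3 and 274. *Slc7a11*, the cystine transporter, was at 1.57 and 1.77 FPKM in WT and at 1.04 and 1.84 in the other pair, values near the limit of 1 FPKM with overlapping intervals in each pair.

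The 2 tRNA synthetases, which charge tRNA with glycine and tryptophan, had small upward ratios. *Gars* was at 112 and 128 FPKM in WT and at 101 and 139 in the pair labelled KO. *Wars* was at 27.1 and 30.5 FPKM and at 25.3 and 32.7. Of the 18 other cytosolic tRNA synthetase genes, 11 had ratios above 0 in WT, with a median of 0.08, and 16 in the pair labelled KO, with a median of 0.21. *Farsb*, for phenylalanine, and *Sars*, for serine, had the largest log2 ratios of that list in the pair labelled KO, 0.74 and 0.59. In WT theirs were -0.01 and 0.30, where the ratios of the list ran from -0.59 to 0.34.

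The 7 chaperone and ERAD genes did not share the upward direction, and 2 of them, *Hspa5* and *Hsp90b1*, had the highest levels of the set in the MEF libraries. *Hspa5*, which encodes BiP, the main ER chaperone and the standard marker of the unfolded protein response, was at 598 FPKM with DMSO and 584 with GSK126 in WT, and at 664 and 483 in the pair labelled KO. The WT intervals of 576 to 621 and 563 to 606 FPKM overlapped, and those of 644 to 684 and 465 to 502 in the other pair did not. *Hsp90b1*, the ER form of HSP90, was at 533 and 477 FPKM in WT and at 588 and 426 in the other pair. *Pdia4*, which forms disulfide bonds, was at 197 and 171 FPKM in WT and at 160.1 and 148 in the other pair. Each of these 3 was therefore lower with GSK126 in both pairs, by log2 ratios from -0.03 to -0.47.

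*Dnajb9*, a BiP cofactor, was at 9.52, 8.54, 12.1 and 11.3 FPKM in the order used above, and *Sdf2l1*, another, at 24.8, 24.5, 24.7 and 21.2. *Creld2*, induced by ER stress, was at 34.9 and 41.7 FPKM in WT and at 47.8 and 32.7 in the pair labelled KO. *Herpud1*, which assembles the ERAD complex and whose promoter holds a CARE match, was at 48.2 and 63.8 FPKM in WT and at 77.3 and 70.2 in the other pair. *Herpud1* and *Creld2* thus had the same order of DMSO libraries as *Atf4* and *Ddit3*, with WT DMSO lowest for *Herpud1*. Of 18 further chaperone and ERAD genes, 17 passed the filter, and 7 had ratios above 0 in WT (median -0.04) and 9 in the other pair (median 0.07). *Pdia6*, a disulfide isomerase, was at 242 and 208 FPKM in WT and at 232 and 158 in the other pair, and *Derl3*, a part of the ERAD channel and the gene that did not pass the filter, at 0.751 and 1.01 and at 0.827 and 0.292.

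**Figure D2:**
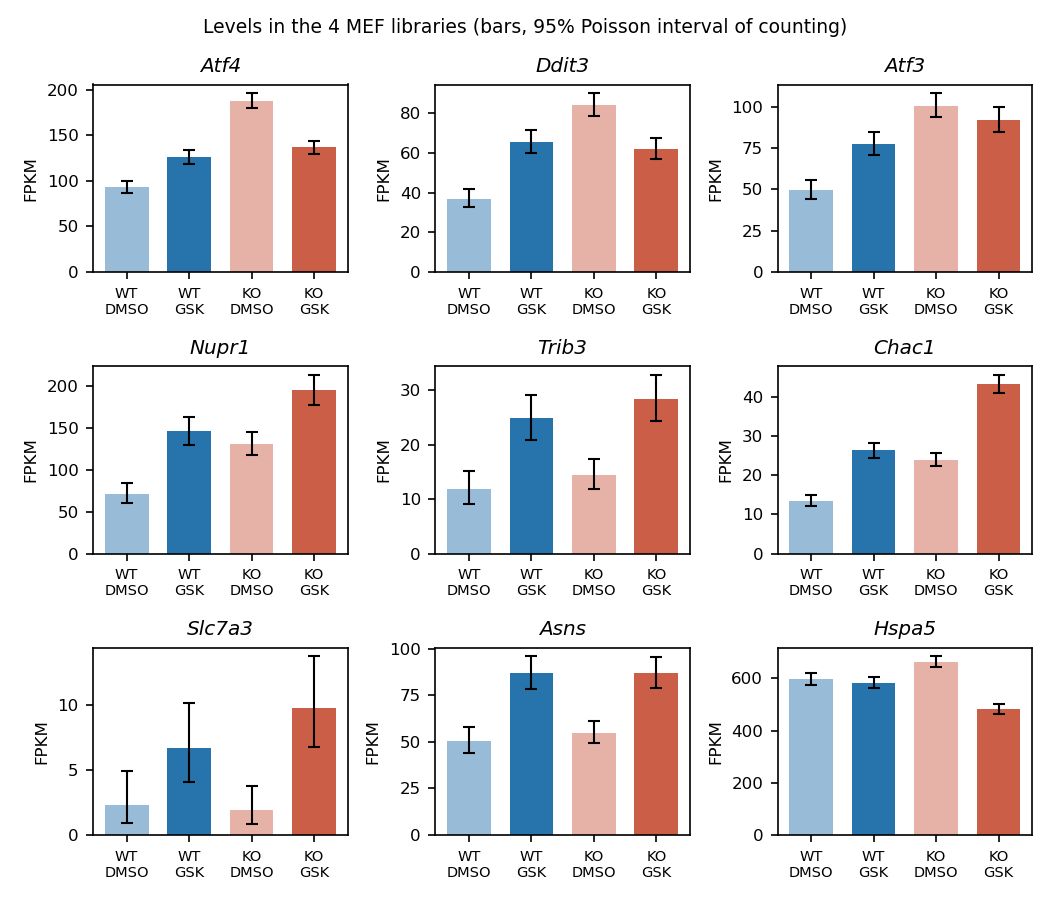
FPKM of 9 of the genes in the 4 MEF libraries (WT in blue, labelled *Dnmt3a* KO in red, DMSO pale and GSK126 dark), with 95% Poisson intervals of counting on the shortest transcript as error bars. *Trib3*, *Chac1*, *Slc7a3* and *Asns* have the higher bar with GSK126 in both pairs, *Atf4*, *Ddit3* and *Atf3* have their highest bar in the library labelled KO with DMSO, and *Hspa5* has its lowest bar in the library labelled KO with GSK126.

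The 10 genes with a CARE match had a higher median log2 ratio than the 21 with a promoter entry and no match, 0.66 against 0.24 in WT and 0.47 against 0.13 in the pair labelled KO. Single genes overlapped between the groups. *Slc7a11* (0.11), *Gars* (0.19) and *Pycr1* (0.22) have a match and lay below the median of the genes without one in WT, and *Atf3* (-0.12), *Herpud1* (-0.14) and *Pycr1* (0.02) did so in the other pair. For the 3 genes with ERSE the medians were -0.03 and -0.47, against 0.34 and 0.23 for the other 28. All 3 belong to the chaperone and ERAD group, so this contrast cannot be told apart from that of role. The CARE contrast shares this limit in part, since *Herpud1* is the only chaperone or ERAD gene with a CARE match. The medians are descriptions of small groups, and *Psph*, *Ddit3*, *Mthfd2* and *Atf5*, which have no CARE match in the window, also had ratios above 0.5 in WT.

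The pathway around the set was read from lists of genes outside it. Of 22 other ATF4 targets, 18 had ratios above 0 in WT and 20 in the pair labelled KO, against 50.2% and 45.4% of all genes, with medians of 0.29 and 0.32. At least 2-fold higher were 4 of 22 in WT, against 1.67% of all genes, and 2 of 22 in the pair labelled KO, against 1.69%. *Adm2*, a peptide hormone gene, was at least 2-fold higher in both, at 0.792 and 3.13 FPKM in WT and at 1.11 and 5.89 in the other pair. *Fgf21*, a metabolic hormone gene, was at 1.04 and 1.17 FPKM in WT and at 1.25 and 4.16 in the other pair. The upstream genes were read from 2 lists. Of the 11 genes of eIF2, its kinases, eIF2B and the phosphatase, 6 were above 0 in WT (median 0.05) and 4 in the other pair (median -0.03), and none was past 1.5-fold. *Eif2ak3*, the ER stress kinase PERK, was at 17.3 and 12.7 FPKM in WT and at 13.0 and 18.0 in the other pair, and *Eif2ak4*, the amino acid kinase GCN2, at 3.74 and 4.11 and at 5.28 and 3.77. Of the 5 genes of unfolded protein sensors and of proteases that cleave ATF6, 4 were above 0 in each pair, with medians of 0.22 and 0.08. None was past 1.5-fold, with *Ern1* at log2 ratios of 0.33 and 0.01 and *Mbtps1*, a protease gene, at -0.01 and -0.39.

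Of the 7 fibroblast markers, 5 were lower with GSK126 in WT and 6 in the pair labelled KO, with none at 0. Their sum went from 11828 to 8828 FPKM and from 9037 to 5980.4, and most of it was the collagen genes *Col1a1*, *Col1a2* and *Col3a1*. *Thy1* was higher with GSK126 in both pairs, at 613 and 768 FPKM and at 441 and 517, and *Lum* was at 87.6 and 88.5 in WT, so the markers did not share 1 direction. These 5 markers are named after their values were seen. The 4 macrophage markers summed to 1283 and 1339 FPKM and to 1099 and 960.3. Their part in the ratios above was not tested.

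Between genotypes with DMSO, the library labelled *Dnmt3a* KO had higher levels than WT for *Atf4*, *Ddit3* and *Atf3* by log2 ratios of 1.01, 1.17 and 1.002, so 3 of 34 were at least 2-fold higher, against 3.82% of 13147 genes, and none was at least 2-fold lower, against 1.81%. The values are those given above, with 92.8 against 188 FPKM for *Atf4*, and both *Atf4* and *Atf3* fell just short of 2-fold when the ratios were centred on the median of all genes. *Ppp1r15a* (58.3 and 116 FPKM, log2 ratio 0.98), *Nupr1* (0.88), *Psph* (0.82), *Chac1* (0.79), *Vldlr* (0.77) and *Herpud1* (0.67) were next. The genes of amino acid import and charging were not among them. The 4 transporters had a median of -0.15 and the 2 synthetases a median of -0.12, and *Asns* was at 50.7 and 54.9 FPKM.

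With GSK126 the same 2 genotypes were closer. None of the 34 was at least 2-fold higher, against 2.51% of 13089 genes, and none was at least 2-fold lower, against 2.55%, with log2 ratios of 0.11 for *Atf4*, -0.08 for *Ddit3* and 0.24 for *Atf3*. *Ppp1r15a* (57.2 against 94.0 FPKM, 0.71) and *Chac1* (26.4 against 43.3 FPKM, 0.70) were the only ones past 1.5-fold, 2 of 34 higher against 6.80% of all genes and 0 lower against 7.64%. These genotype comparisons share their 4 libraries with the GSK126 comparisons, so a high *Atf4* value in the library labelled KO with DMSO enters both. Of the 8 immediate early genes, which respond to handling and serum, all 8 were higher in the libraries labelled KO both with DMSO (median 0.82) and with GSK126 (median 0.80), with *Dusp1* at 87.4, 94.7, 215 and 186 FPKM and *Fosb* at 78.8, 85.4, 137 and 173 in the order used above. All 7 fibroblast markers were lower in the libraries labelled KO, with medians of -0.48 with DMSO and -0.55 with GSK126, and so were all 4 macrophage markers, with medians of -0.57 and -0.56. Other marker lists had higher sums in the libraries labelled KO. The 3 epithelial markers summed to 5.20 and 13.4 FPKM with DMSO and to 7.23 and 22.2 with GSK126. The 4 skeletal muscle markers summed to 15.6 and 40.6 FPKM with DMSO and to 15.2 and 22.2 with GSK126. The part of these lists in the genotype difference was not tested.

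In 2i-MEFs, *Dnmt3a* KO cells had lower levels than *Dnmt3b* KO cells for most of the amino acid arm, by less than 2-fold. The median log2 ratio of the 34 was -0.19, against 0.02 for all genes, and 9 of 34 were above 0 (26.5%, against 53% of 13002 genes). None was at least 2-fold higher, against 4.86%, and none at least 2-fold lower, against 3.06%. All 7 transcription factor genes were lower, among them *Atf4* at 224 FPKM in *Dnmt3a* KO and 273 in *Dnmt3b* KO, *Ddit3* at 127 and 184 and *Nupr1* at 281 and 378. *Trib3* was at 46.3 and 72.6 FPKM, *Asns* at 124 and 189 and *Slc7a3* at 17.7 and 27.3, with log2 ratios of -0.64, -0.60 and -0.60. The intervals of *Trib3* (39.1 to 54.1 and 63.0 to 83.5) and *Asns* (111 to 139 and 171 to 208) did not overlap, and those of *Slc7a3* did (12.2 to 25.2 and 19.5 to 36.9). In the opposite direction were *Sdf2l1*, at 20.7 and 11.3 FPKM, *Slc7a11*, at 2.05 and 0.967, and *Dnajb9*, at 15.2 and 10.3. The intervals of *Sdf2l1* did not overlap (18 to 23.7 and 9.14 to 13.8), and those of *Slc7a11* (0.724 to 4.29 and 0.0949 to 2.83) and *Dnajb9* (10.3 to 21.8 and 5.99 to 16.5) did. The 8 immediate early genes summed to 430.4 FPKM in *Dnmt3a* KO and 286 in *Dnmt3b* KO, and the 7 fibroblast markers to 17535 and 16646. The 4 skeletal muscle markers summed to 5.40 and 17.4 FPKM and the 3 epithelial markers to 1.60 and 7.68. The part of these lists in the 2i-MEF ratios was not tested. RNA of WT 2i-MEFs was not part of what was analysed, and neither KO was set against its own WT.

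In the organs the genotype ratios of the genes that passed the filter stayed under 2-fold, as did those of most genes tested. With all-gene shares as low as those below, counts of 0 do not set these genes apart. In heart 31 of the 34 passed the filter, the 3 others being *Chac1*, *Slc7a11* and *Slc7a3*, and 0 were at least 2-fold higher (1.72% of 13282 genes) or lower (1.40%). *Atf3* had the largest difference, at 9.22 FPKM in WT and 15.6 in the heart labelled KO (log2 ratio 0.71, intervals 6.95 to 12.0 and 12.4 to 19.6), followed by *Ppp1r15a* at 12.0 and 17.0, with overlapping intervals of 8.58 to 16.1 and 12.6 to 22.6. *Atf4* was at 24 and 26.6 FPKM, with overlapping intervals of 20.9 to 27.5 and 23.0 to 30.8. In liver 32 passed, all but *Slc7a11* and *Slc7a3*, and 0 were at least 2-fold higher (1.21% of 12816 genes) or lower (2.01%). *Asns* was at 303 FPKM in WT and 432 in the liver labelled KO and *Dnajb9* at 4.57 and 7.42, with log2 ratios of 0.51 and 0.60, while *Cebpb* was at 8.54 and 5.57 (-0.54) and *Atf4* at 226 and 180.2 (-0.33). Thus *Atf4* and *Asns* differed in opposite directions, and the intervals of *Dnajb9* overlapped (2.92 to 7.05 and 5.08 to 10.2). Both organ pairs also differed in their cell type markers. In heart the 5 erythroid markers summed to 19834 FPKM in WT and 14289 in the heart labelled KO, with all 5 lower in the latter, and the 4 hepatocyte markers that passed the filter were all at least 2-fold lower in it. In liver the 5 erythroid markers summed to 56203 FPKM in WT and 84494 in the liver labelled KO, and the 5 hepatocyte markers to 17823 and 10796, none at 0 in either. All 7 fibroblast markers were lower in the liver labelled KO, with sums of 511 and 273 FPKM, as were all 4 macrophage markers (179 and 114) and all 4 skeletal muscle markers (45.6 and 1.28). The part of these lists in the ratios was not tested. Outside the set, *Eif2ak2*, the viral RNA kinase PKR, was at 6.27 and 16.9 FPKM in the 2 livers, a log2 ratio of 1.30, and it is named here after its value was seen.

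**Figure D3:**
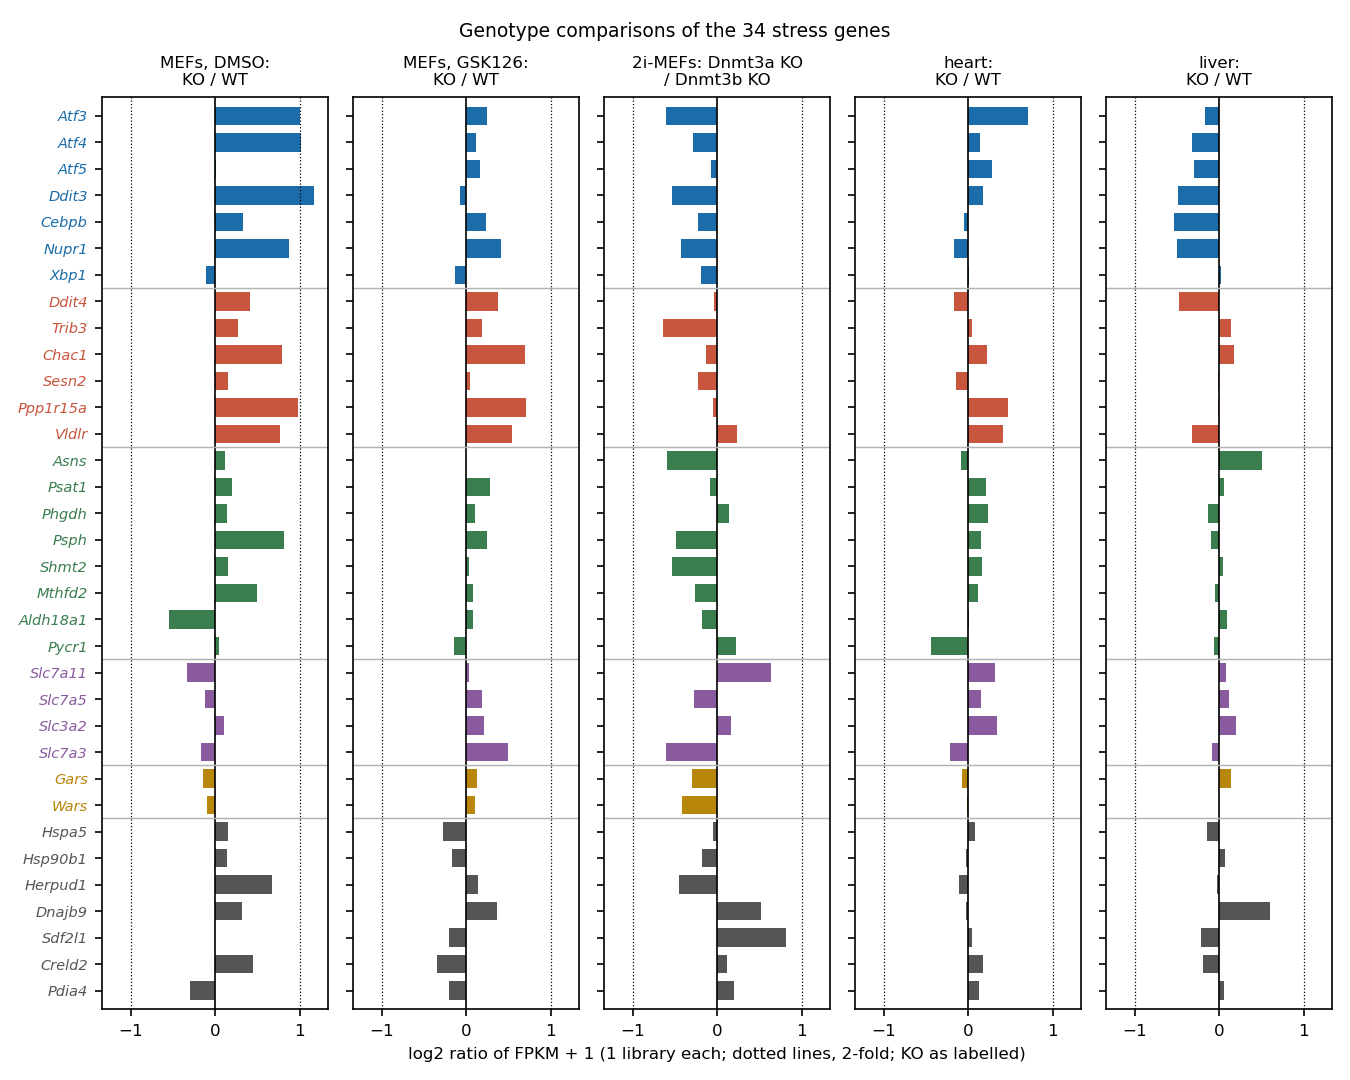
Log2 ratio of FPKM + 1 of each of the 34 genes in 5 genotype comparisons, 1 library against 1 library, with bars coloured by role and dotted lines at 2-fold. In MEFs with DMSO the bars of *Atf3*, *Atf4* and *Ddit3* reach 2-fold, and in 2i-MEFs, heart and liver no bar does.

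The level of the set was lowest in heart. Summed over the 34 genes, it was 1669 and 1765 FPKM in the 2 hearts, 2937 to 3457 in the 4 MEF libraries, 3926 and 3969.6 in the 2 livers and 4208 and 4739.8 in the 2i-MEFs, with the ER chaperones *Hspa5* and *Hsp90b1* the largest terms. Every MEF library lay above every heart library for 28 of the 34, where this held for 36.0% of 14150 genes. Both 2i-MEF libraries lay above all 4 MEF libraries for 15 (23.6% of genes), among them *Atf4*, *Ddit3*, *Nupr1*, *Trib3*, *Asns* and *Slc7a3*, and below them for 3 (21.0%), *Atf3*, *Ppp1r15a* and *Sdf2l1*. *Atf3* showed the widest gap of these, at 49.6 to 100.3 FPKM in MEFs and 4.31 to 7.11 in 2i-MEFs, and so departed from *Atf4*, which was at 92.8 to 188 and 224 to 273. The 2i-MEFs also differ from the MEFs in strain, sex, selection and sorting and in the macrophage markers given above, and these cannot be told apart from one another.

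Liver and heart of the same embryo also differed for many of the genes. In WT, 31 of the 34 passed, 13 were at least 2-fold higher in liver (21.1% of 13704 genes) and 4 lower (20.3%), and in the embryo labelled *Dnmt3a* KO 12 of 32 were higher (19.8% of 13638 genes) and 3 lower (23.3%). Both livers lay above both hearts for 25 of the 34 (42.3% of genes) and below them for 6 (39.7%). *Asns* was at 22.0 and 20.8 FPKM in the hearts and at 303 and 432 in the livers, and *Ppp1r15a* at 12.0 and 17.0 and at 204 and 202. *Atf4* was at 24 and 26.6 FPKM in the hearts and at 226 and 180.2 in the livers. *Mthfd2* (12.1 and 13.1 against 107 and 103), *Psph* (17.9 and 20 against 108 and 101) and *Phgdh* (63.8 and 75.1 against 349.5 and 318) had the same order. Of the synthesis genes, 6 of 8 were thus at least 2-fold higher in liver in each embryo, and *Pycr1* was lower in both livers.

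The other stress markers were divided between the organs. *Trib3* was at 3.02 and 3.16 FPKM in the hearts and at 2.44 and 2.81 in the livers, *Chac1* at 0.624 and 0.902 and at 1.19 and 1.49, and *Ddit3* at 11.8 and 13.5 and at 23.7 and 16.7. *Ddit3* in WT was the one of these values with intervals that did not overlap between heart and liver. The intervals of heart and liver overlapped for *Ddit3* in the embryo labelled KO and for *Chac1* and *Trib3* in both embryos, and *Chac1* was under the filter in the WT pair. *Atf3* (9.22 and 15.6 against 2.73 and 2.32 FPKM), *Ddit4* (18.1 and 16 against 4.76 and 3.15), *Vldlr* (19.8 and 26.7 against 3.81 and 2.86) and *Nupr1* (6.16 and 5.37 against 4.64 and 3.00) were lower in both livers, and the intervals of *Nupr1* overlapped. Set against cultured cells, both livers lay above all MEFs for 12 of the 34 genes, near the share of 36.9% over all genes. Most of these were synthesis genes, *Slc7a5* and the 2 synthetases. Both livers lay below all MEFs for 16 (38.9% of genes), which included *Atf3*, *Ddit3*, *Nupr1*, *Trib3*, *Chac1* and *Slc7a3*. The organs came from embryos and hold many cell types, with 5 cardiomyocyte markers at a sum of 18438 to 21438 FPKM in heart and 15.4 to 67.1 in liver and erythroid markers at 14289 to 19834 FPKM in heart, so a level in an organ cannot be assigned to 1 of its cell types.

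**Figure D4:**
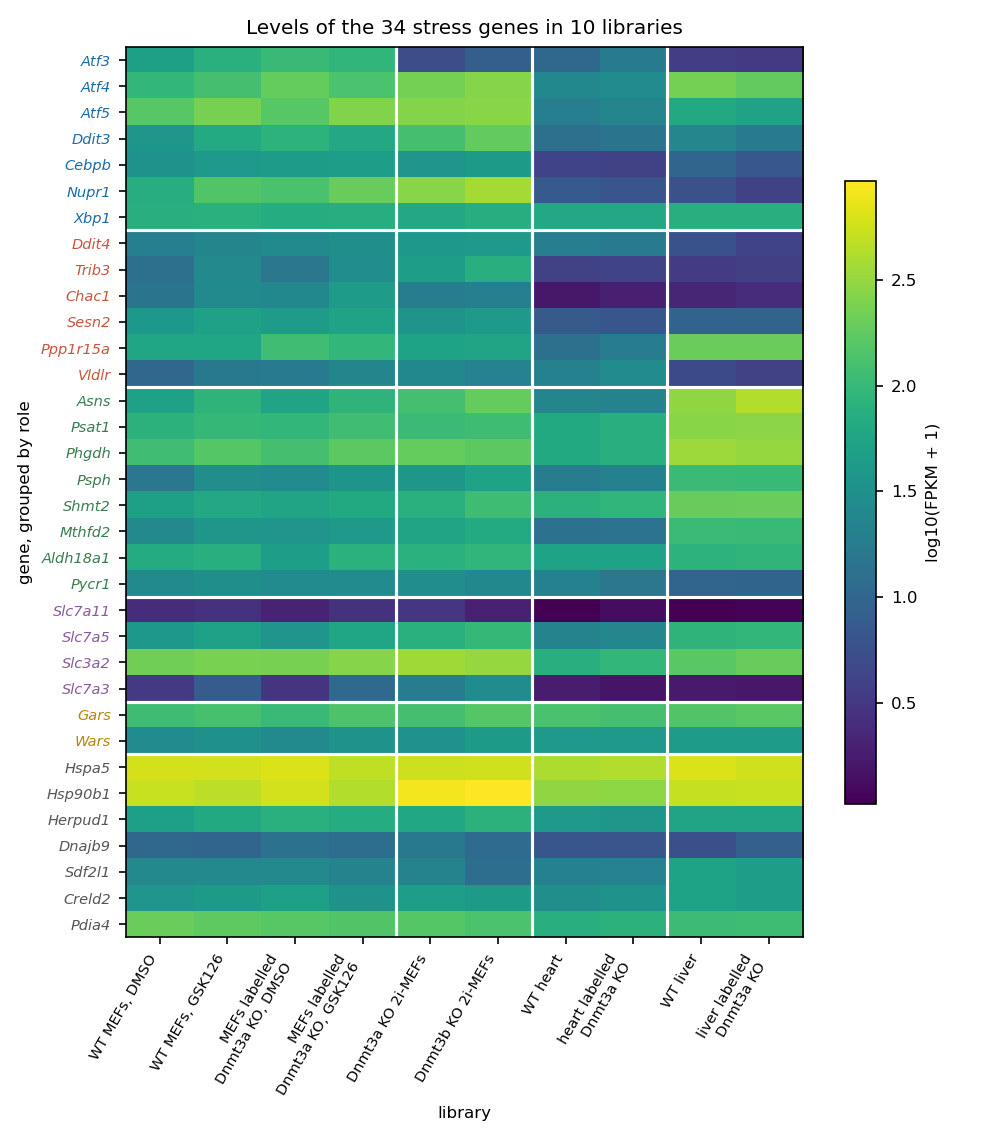
Levels of the 34 genes, as log10 of FPKM + 1, in the 10 libraries, with genes grouped by role and white lines between tissues. *Hspa5* and *Hsp90b1* are high in every library, *Slc7a11* is at 2.05 FPKM or below in all, and *Trib3*, *Chac1*, *Nupr1* and *Slc7a3* are higher in both kinds of cultured cells than in heart or liver.

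**Figure D5:**
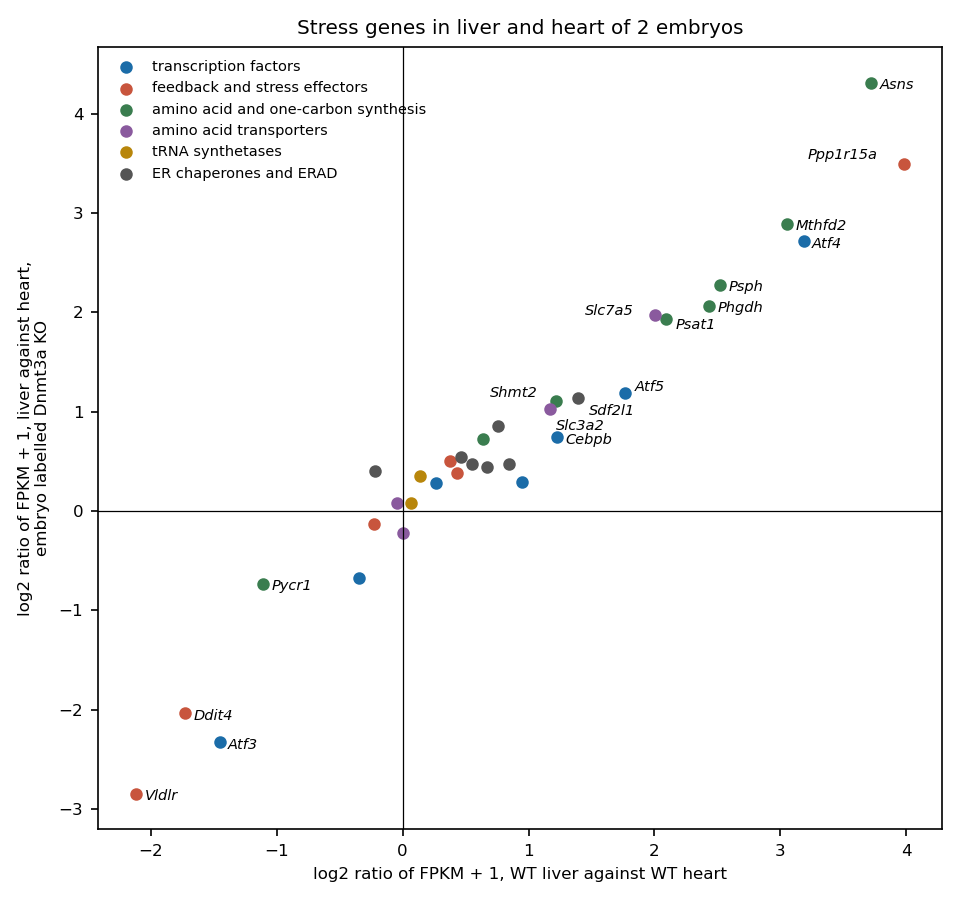
Log2 ratio of FPKM + 1 between liver and heart in the WT embryo (horizontal axis) and in the embryo labelled *Dnmt3a* KO (vertical axis) for each of the 34 genes, with names where a ratio is at least 2-fold in either. Organs were assigned to embryos by their labels. *Asns*, *Ppp1r15a*, *Mthfd2* and *Atf4* lie at the upper right and *Vldlr*, *Atf3* and *Ddit4* at the lower left.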

How the data were processed

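RNA-seq was measured in 10 libraries, 1 per condition. The authors trimmed and mapped the reads to mm10 and calculated FPKM values with Cufflinks 2.2.1 on a GENCODE annotation, and they deposited these FPKM values as 1 table of 52609 rows without read counts. The submitters' processing notes also name TopHat2 2.1.0. Whether the counting used strand is not given in the sources used here, and 8 of the 34 loci overlap another expressed row. The 16 DNA methylation samples were not analysed here.

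Rows of the same symbol were summed (155 rows repeat one). Log2 ratios used FPKM + 1, genes needed a mean of at least 1 FPKM over the pair, and the threshold was 2-fold, with 1.5-fold as an alternative. With 1 library per condition no test was run. Depth was estimated from genes with 1 annotated transcript, and 96.5% to 98.1% of values under 10 reads fell within 0.1 of a whole number of reads, against 20% for an even spread. The calculations were tested on simulated data. Software was Python 3.11.15, numpy 2.4.6, pandas 2.3.3, scipy 1.17.1 and matplotlib 3.10.9.

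The 34 genes and all lists were chosen with earlier results of these data known. Named are all 34 genes, *Dnmt3a* and *Dnmt3b* as a check of the labels and, of each other list, genes at least 2-fold changed with GSK126 in both pairs and the 2 with the largest change in either. Cell type markers, *Pax8* and *Eif2ak2* are named outside this rule. Alternatives were a pseudocount of 0.1 FPKM, centring of the ratios on the median over expressed genes, no filter on low values, and the row with the highest mean per symbol.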

Additional observations from a re-analysis of the deposited data

How the results depend on the processing

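Each of the 9 comparisons was recomputed for its counts of genes at least 2-fold higher and lower and for its median, under a pseudocount of 0.1 FPKM, centring on the median of all genes, no filter on low values and the row with the highest mean. Single genes were recomputed in the 4 MEF comparisons with the pseudocount of 0.1 FPKM and with centring, and no gene past 2-fold changed direction there. Each of the 34 genes has 1 row, so the choice of row cannot move its values and is no check of them. With a threshold of 1.5-fold the number of genes higher with GSK126 was 9 in WT MEFs and 7 in MEFs labelled *Dnmt3a* KO, in place of 3 and 1. Centring left 1 gene at least 2-fold higher in MEFs labelled KO with DMSO in place of 3, since *Atf3* and *Atf4* came to 0.97 and 0.98. With a pseudocount of 0.1 FPKM, 1 gene was at least 2-fold higher in *Dnmt3a* KO 2i-MEFs in place of 0, which was *Slc7a11*. The median of all genes tested was 0.11 between WT liver and WT heart and -0.08 between the livers, and ratios in those pairs are read against it. No paired analysis was run, and each condition has 1 library and no replicate numbers to pair. A fit of GSK126 over the 4 MEF libraries with genotype as a block, which takes the genotypes as replicates and leaves 1 residual degree of freedom, was not run. Leaving out a library was not possible with 1 library per condition. On the shortest transcript few reads lie behind *Slc7a11* and *Slc7a3* in all libraries, *Dnajb9*, *Trib3*, *Nupr1* and *Chac1* in organs and *Atf3* in 2i-MEFs and liver. For *Slc7a5* the shortest transcript, of 174 bases, holds 0 to 2 reads and gives no usable interval. Fewer reads limit precision, and a spread between cultures or animals was not measured.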

Other observations

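Other stress programmes were read in the same 2 pairs of MEF libraries, from lists chosen with earlier results of these data known. Over all genes tested, 50.2% had a ratio above 0 in WT and 45.4% in the pair labelled KO. Of 7 NRF2 targets, genes of the oxidative stress response, all 7 had lower levels with GSK126 in WT MEFs, with a median log2 ratio of -0.54, and 4 of 7 in MEFs labelled *Dnmt3a* KO, with a median of -0.15. *Osgin1* was at 4.41 FPKM with DMSO and 1.60 with GSK126 in WT and at 4.60 and 2.91 in the other pair. *Gclm*, a subunit of the enzyme that begins glutathione synthesis, was at 77.9 and 39.8 FPKM and at 66.4 and 59.6. Of 7 p53 targets, 6 were above 0 in WT and 7 in the other pair, with medians of 0.27 and 0.18. *Cdkn1a*, an inhibitor of the cell cycle, was at 426 and 596 FPKM in WT and at 484 and 718 in the other pair, and *Ccng1* at 181 and 218 and at 167 and 276.

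The 8 cytosolic heat shock genes had medians of 0.05 and -0.04. *Hspa1b*, the stress-induced HSP70, was at 12.9 and 11.5 FPKM in WT and at 14.1 and 6.03 in the pair labelled KO, and *Bag3* at 68.6 and 62.7 and at 58.6 and 72.0. The 5 mitochondrial chaperone and protease genes had medians of 0.24 and 0.25, with *Lonp1* at 37.4 and 45.2 FPKM and at 35.2 and 50.1 and *Hspe1* at 191 and 189 and at 163 and 214. No replicate check exists for any of these values.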
